A study of Arabidopsis thaliana with 40 samples.

Results

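The genes for the replicative helicase subunits MCM2 (AT1G44900), MCM3 (AT5G46280), MCM4 (AT2G16440), MCM5 (AT2G07690), MCM6 (AT5G44635) and MCM7 (AT4G02060), the sliding clamp genes PCNA1 (AT1G07370) and PCNA2 (AT2G29570), and the MCM-associated gene ETG1 (AT2G40550) were followed across an mRNA sequencing series of Arabidopsis thaliana seedlings. These 9 genes were taken by locus identifier, and all 9 were among the 27655 transcripts of the deposited tables, with 1 transcript per locus. The series holds 40 libraries, made from root and shoot (the aerial part) of 5 genotypes with 4 replicates each. The wild type (wt) was Col-0. The line bz1728 carries the insertions SALK_004048 and SALK_132285, in BZIP17 and BZIP28, which encode transcription factors held in the endoplasmic reticulum membrane until protein folding stress releases them. The line nobiro6 was labelled a suppressor mutant and is labelled as bz1728 with a further mutation, so that both lines should carry the same bZIP insertions. The line nbr6-t1 is the T-DNA line GABI_172C03 of TAF12B, and taf12-t1 is the T-DNA line WiscDsLoxHs044_12E of its paralog TAF12. TAF12B and TAF12 encode subunits of TFIID, the general factor that places RNA polymerase II at promoters. Each mutant is a single line. All seedlings grew on agar at 22 °C with 16 h of light after 3 d at 4 °C, and their age is labelled both 12 d and 13 days after sowing. The labels do not say whether replicates came from separate cultures, so the p-values measure the spread between these libraries, which may be partly technical.

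Before a cell copies its DNA, the origin recognition complex, CDC6 and CDT1 load a ring of MCM2 to MCM7 at replication origins. CDC45 and the GINS complex then turn that ring into the active helicase, and PCNA, a ring-shaped clamp loaded by replication factor C, holds DNA polymerases on the template. In plants as in animals, transcription of these genes rises as cells enter S phase under E2F transcription factors, so their transcripts are widely used as markers of dividing tissue such as meristems and young leaves. ETG1 was named as an E2F target and encodes a partner of the MCM complex with a part in sister chromatid cohesion.

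Library totals ran from 2.66 to 12.9 M expected counts (M, 1000000 counts), with a median of 4.94 M, and the wt shoot libraries were the deepest at 7.58 to 12.9 M. Tissue markers mostly fitted the labels. All 4 photosynthesis genes were lower in wt root than in wt shoot, and 4 of 5 root tissue markers were higher (edgeR). The fifth, SCR, was lower in wt root (-1.21 ± 0.09, edgeR adjusted p = 1.2e-16), and of 4 tested shoot meristem and young leaf markers BP and AN3 were higher in root. The root meristem regulator PLT1 was at 0 in all 20 shoot libraries, and the shoot meristem regulator STM was at 0 in all root libraries but 1. The insertion checks were uneven. BZIP28 was at 0 CPM in all 8 bz1728 libraries but at 13.9 ± 3.32 (SD, n = 4) in nobiro6 root and 26.9 ± 3.26 in nobiro6 shoot. TAF12 was not low in the root libraries labelled taf12-t1 (20.6 ± 3.89 CPM, wt 10.2 ± 0.512), and in shoot the values were 6.97 ± 1.55 CPM for taf12-t1 and 9.95 ± 0.975 for wt. TAF12B was not low in nbr6-t1 root either (58.8 ± 4.8 CPM, wt 53.1 ± 5.32) but was low in nbr6-t1 shoot (14.2 ± 2.39 CPM, wt 48.7 ± 5.07). The genotype of these libraries is therefore used below as labelled. Levels in CPM are counts per 1000000 after TMM scaling within each tissue.

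The upstream sequence of the MCM genes is shown because all 6 of them carried an E2F-type motif within 250 bases of the annotated start. The motifs searched were TTTCCCGC, TTTCGCGC, TTTGCCGC and TTTGGCGC on both strands, in the 250 bases before each start, in RefSeq sequence of build TAIR10.1. The deposited transcript lengths equalled those of RefSeq for 27443 of the 27445 loci found there, all 9 genes included. In the 60-base windows below, written 5′ to 3′ on the strand of the gene, capitals mark the E2F match. The windows lie at chr1:16970174-16970233 (plus strand) for MCM2, chr5:18773843-18773902 (minus) for MCM3, chr2:7130731-7130790 (minus) for MCM4, chr2:3527501-3527560 (minus) for MCM5, chr5:18010680-18010739 (minus) for MCM6 and chr4:901315-901374 (plus) for MCM7.
MCM2: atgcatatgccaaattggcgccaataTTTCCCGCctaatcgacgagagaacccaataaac
MCM3: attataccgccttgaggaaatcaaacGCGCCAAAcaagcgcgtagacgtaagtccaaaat
MCM4: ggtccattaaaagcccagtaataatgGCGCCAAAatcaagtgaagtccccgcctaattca
MCM5: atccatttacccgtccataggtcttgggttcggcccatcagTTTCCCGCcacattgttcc
MCM6: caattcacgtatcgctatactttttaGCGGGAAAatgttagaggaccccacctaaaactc
MCM7: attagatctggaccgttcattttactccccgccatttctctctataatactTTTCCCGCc

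No base of these windows lies in an annotated exon, except 20 bases of the MCM2 window, which lie in an exon of another annotated transcript. The motif sat on the gene's own strand in MCM2, MCM5 and MCM7 and on the opposite strand in MCM3, MCM4 and MCM6. In MCM2, MCM4, MCM5 and MCM7 the match began within 40 bases of the start, at -40, -35, -19 and -9. In MCM3 and MCM6 it began at -173 and -171. Of 27444 windows of 250 bases before annotated starts, 1 per locus, 390 (1.42%) held a match. The 250-base windows of PCNA1, PCNA2 and ETG1 held none of these letters. Site II elements, searched as TGGGCC and TGGGCT on both strands and often found upstream of plant genes active in cycling cells, were present in 6 of the 9 windows, those of MCM2 to MCM6 and PCNA2, against 19.36% of all windows. Both kinds of match were present in 5 of 9 windows and in 0.48% of all windows. A match is a description of letters and not a measured binding site.

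On the per-length scale (TPM), the clamp genes stood above the helicase genes in wt root. PCNA2 had the highest mean there at 41.1 ± 6.35 TPM and PCNA1 followed at 31.6 ± 2.73, and the libraries of these 2 genes overlapped. All wt root libraries of PCNA1 lay above all libraries of MCM7, the highest helicase gene at 20.6 ± 4.66 TPM. Below it came MCM2 at 20.5 ± 2.61, MCM5 at 17.6 ± 3.02, MCM4 at 15.4 ± 2.1, MCM3 at 14.6 ± 2.19 and MCM6 at 12.5 ± 2.09 TPM. ETG1 was lowest, at 10.3 ± 2.27 TPM, and every pair of neighbours from MCM7 down to ETG1 overlapped. In wt shoot the order was PCNA2 (21.1 ± 1.20 TPM), PCNA1 (15.7 ± 1.36), MCM7 (15.6 ± 0.631), MCM2 (12.8 ± 0.758), MCM5 (11.2 ± 1.39), MCM3 (10.04 ± 0.737), MCM4 (8.95 ± 0.842), MCM6 (8.63 ± 1.48) and ETG1 (8.30 ± 1.34). There only PCNA2 and PCNA1, and MCM7 and MCM2, were neighbours whose libraries did not overlap.

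The helicase subunits work together in 1 ring, and their transcripts were not equal in level. Of the summed MCM2 to MCM7 TPM in the 20 root libraries, MCM2 made up a mean of 21.1% and MCM7 19.98%, and MCM6 had the smallest share at 10.8%. In the 20 shoot libraries MCM7 made up 22.6%, MCM2 18.1% and MCM6 12.4%. The ratio of PCNA2 to PCNA1 TPM was 1.30 ± 0.174 in wt root and 1.02 ± 0.0659 in taf12-t1 root, with all 4 taf12-t1 libraries (0.944 to 1.08) below all 4 of wt (1.13 to 1.47). The bz1728 root libraries (0.997 to 1.12) also lay below all of wt, and those of nobiro6 (0.727 to 1.33) and nbr6-t1 (1.14 to 1.39) overlapped wt. In shoot it was 1.35 ± 0.0951 in wt and 1.16 ± 0.134 in taf12-t1, and the libraries overlapped. No test was run on these ratios.

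**Figure D1:**
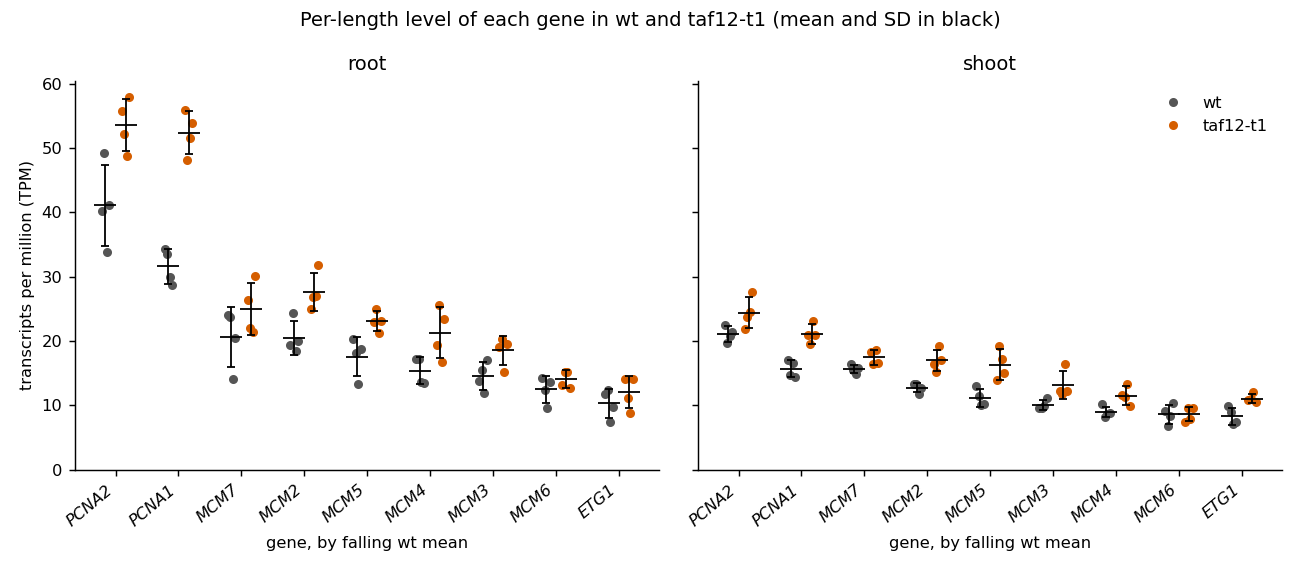
TPM of each gene (vertical axis) in wt (grey points) and in libraries labelled taf12-t1 (orange points), in root (left) and shoot (right); genes are ordered by falling wt mean on the horizontal axis, and black marks are the mean and SD of 4 libraries. The clamp genes PCNA2 and PCNA1 stand highest in both tissues, and PCNA1 in root shows the widest gap between the genotypes, 31.6 against 52.4 TPM.

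The libraries labelled taf12-t1 held the highest mean CPM of the 5 genotypes for all 9 genes in root and for 8 of 9 in shoot. In root, where these libraries held more TAF12 transcript than wt, 8 of the 9 genes rose against wt, with none lower (edgeR quasi-likelihood test, Benjamini-Hochberg adjusted p under 0.05 over 18745 genes). Of all genes tested there, 39.2% were called in either direction and 19.5% were called higher. The median log2 change of the 9 genes was 0.52, and that of all genes was 0.001. The approximate standard errors given with log2 changes are the change divided by the root of its F statistic.

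PCNA1 changed most in root. Its CPM in replicates 1 to 4 was 23.5, 22.8, 20.5 and 19.5 in wt and 42.2, 35.9, 39.5 and 40.5 in taf12-t1. Every taf12-t1 library lay far above every wt library, and the log2 change was 0.88 ± 0.11, a 1.84-fold rise (edgeR adjusted p = 1.5e-07). PCNA2, which encodes the second clamp protein, was at 29.3, 35.4, 24.4 and 29.6 CPM in wt and at 44.5, 41.2, 39.5 and 46.0 in taf12-t1. Here too the groups did not overlap, and the log2 change was 0.52 ± 0.11 (edgeR adjusted p = 0.00043).

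Among the helicase genes, MCM4 and MCM2 had the largest changes in root. MCM4 was at 34.8, 34.5, 27.4 and 27.1 CPM in wt and at 43.0, 56.1, 37.6 and 51.5 in taf12-t1, all above wt, with a log2 change of 0.61 ± 0.12 (edgeR adjusted p = 0.00014). MCM2 was at 43.5, 54.0, 41.2 and 44.4 CPM in wt and at 61.5, 65.0, 67.4 and 77.8 in taf12-t1, a log2 change of 0.56 ± 0.09 (edgeR adjusted p = 5.5e-06), again with no overlap. MCM5 was at 38.3, 33.8, 24.9 and 35.0 CPM in wt and at 47.6, 51.1, 44.6 and 47.4 in taf12-t1, a change of 0.53 ± 0.10 (edgeR adjusted p = 6.8e-05). In all, 5 of the 9 genes had every taf12-t1 root library above every wt library, as did 17.6% of all genes tested.

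MCM3, MCM7 and ETG1 rose by less relative to their spread, and their groups overlapped. MCM3 changed by 0.47 ± 0.11 in log2 (edgeR adjusted p = 0.0012), with 3 of 4 taf12-t1 libraries above all of wt. MCM7 was at 43.0, 41.7, 24.9 and 36.2 CPM in wt and at 51.4, 42.4, 42.4 and 58.4 in taf12-t1, a change of 0.43 ± 0.14 (edgeR adjusted p = 0.021). ETG1 changed by 0.37 ± 0.15 (edgeR adjusted p = 0.046). The ETG1 call was lost with DESeq2 (adjusted p = 0.086), without the filter (edgeR adjusted p = 0.057), with only the groups compared (edgeR adjusted p = 0.057) and on both TPM scales (0.21 and 0.23, limma adjusted p = 0.29 and 0.3). MCM7 was also lost on both TPM scales (0.28 and 0.3, limma adjusted p = 0.15 each). MCM6 missed the threshold at 0.30 ± 0.12 (edgeR adjusted p = 0.053), with 27.3, 23.1, 18.2 and 25.8 CPM in wt and 27.4, 31.3, 32.1 and 26.2 in taf12-t1. Replicate 3 of wt root was below its group mean for 9 of 9 genes, by 0.29 in log2 on average, and without it the count of genes that rose was 6, since MCM7 (0.29, edgeR adjusted p = 0.056) and ETG1 (0.25, edgeR adjusted p = 0.18) were no longer called. Both were also lost without taf12-t1 root replicate 1 or 4, and ETG1 without wt root replicate 4 (edgeR adjusted p = 0.053 to 0.21). MCM6 was called without wt root replicate 1 or 4 or taf12-t1 root replicate 4 (0.35 each, edgeR adjusted p = 0.03 to 0.042), and with a replicate block (0.30, edgeR adjusted p = 0.038).

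**Figure D2:**
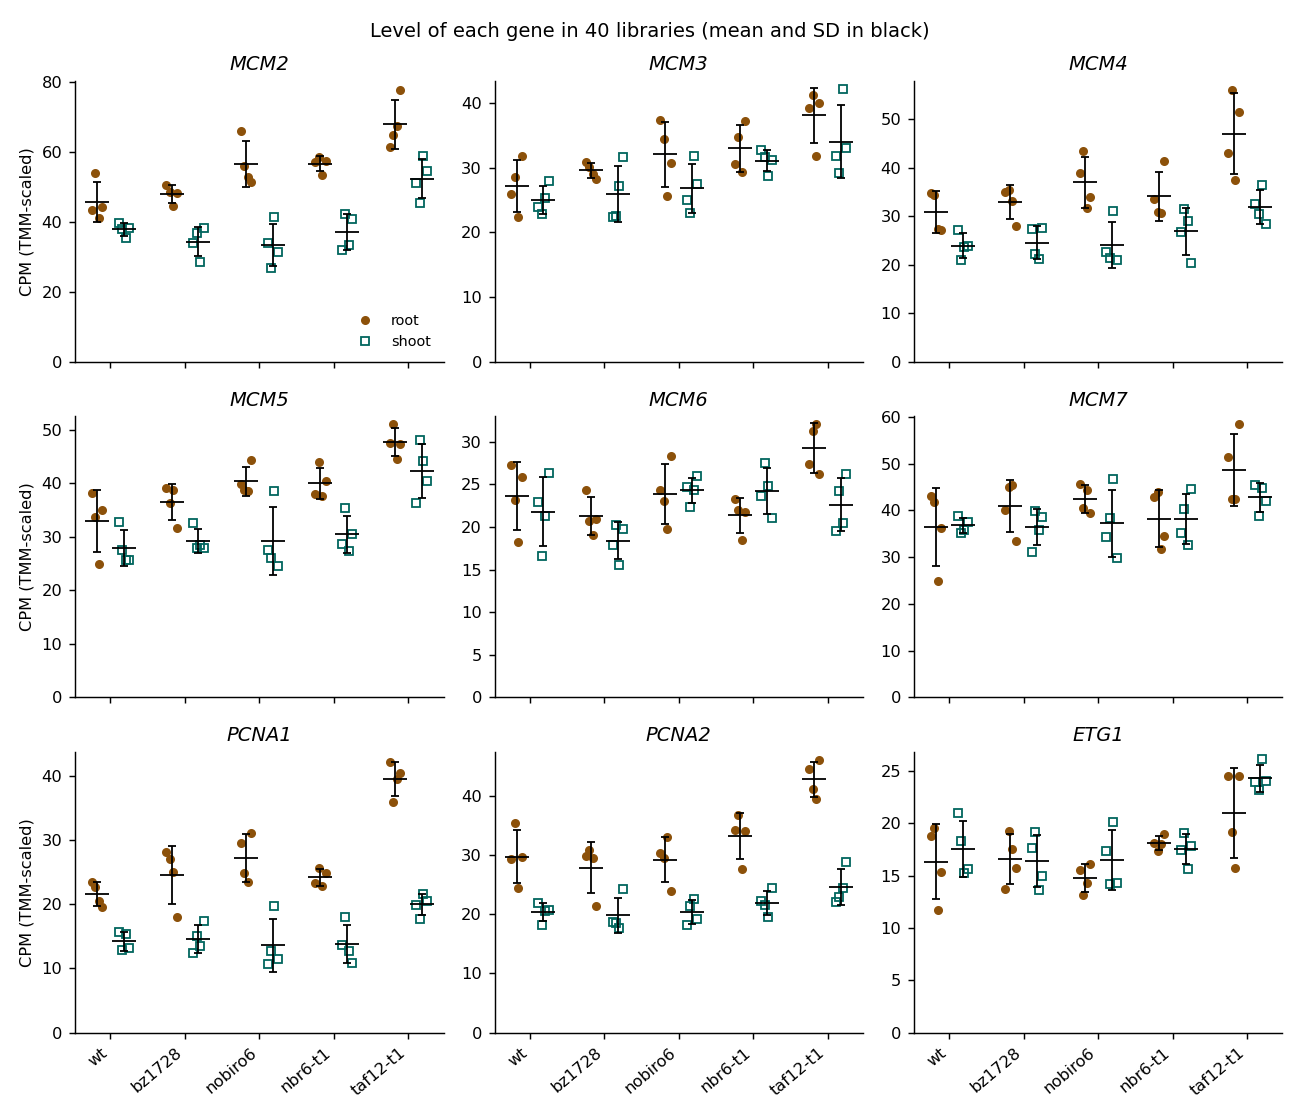
Level of each gene in CPM (vertical axis, TMM-scaled within a tissue, so root and shoot are on separate scales) in all 40 libraries, by genotype on the horizontal axis; filled circles are root libraries, open squares shoot libraries, and black marks the mean and SD of 4 libraries. The taf12-t1 root libraries of PCNA1, at 35.9 to 42.2 CPM, lie above every other root library of that gene, and wt root replicate 3 is the lowest wt library for MCM2, MCM3, MCM5, MCM6, MCM7, PCNA2 and ETG1.

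In shoot, 6 of the 9 genes rose in the libraries labelled taf12-t1, and none was lower (edgeR). Over all 17382 genes tested there, 40.6% were called in either direction and 20.3% were called higher. The median log2 change of the 9 genes was 0.45, against -0.02 for all genes. MCM5 changed most. It was at 32.7, 27.6, 25.7 and 25.6 CPM in wt and at 36.4, 48.2, 44.2 and 40.4 in taf12-t1, and the log2 change was 0.60 ± 0.12 (edgeR adjusted p = 0.00029). ETG1 was at 21.0, 18.3, 15.2 and 15.6 CPM in wt and at 23.9, 23.1, 26.1 and 24.0 in taf12-t1, a change of 0.48 ± 0.13 (edgeR adjusted p = 0.0039). All taf12-t1 libraries of both genes stood above all of wt.

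PCNA1 in shoot was at 15.7, 12.8, 15.4 and 13.2 CPM in wt and at 19.97, 17.8, 21.6 and 20.6 in taf12-t1, a log2 change of 0.48 ± 0.16 (edgeR adjusted p = 0.017). MCM2 changed by 0.47 ± 0.11 (edgeR adjusted p = 0.0018), MCM3 by 0.45 ± 0.12 (edgeR adjusted p = 0.0038) and MCM4 by 0.42 ± 0.13 (edgeR adjusted p = 0.013), each without overlap. On the TPM scales MCM4 was not called (0.33 and 0.36, limma adjusted p = 0.065 and 0.066). PCNA2 had no overlap either, at 22.0 to 28.9 CPM in taf12-t1 and 18.2 to 21.8 in wt, but its change of 0.27 ± 0.11 was not called (edgeR adjusted p = 0.059). In total 7 of the 9 genes did not overlap in shoot, against 18.6% of all genes. MCM7 gave 0.22 ± 0.11 (edgeR adjusted p = 0.12). MCM6 stood out in shoot as the gene with no visible difference, at 23.0, 16.6, 21.3 and 26.3 CPM in wt and 19.6, 24.2, 20.5 and 26.2 in taf12-t1, a change of 0.05 ± 0.13 (edgeR adjusted p = 0.78). PCNA2 was called without taf12-t1 shoot replicate 1 (edgeR adjusted p = 0.045). Without taf12-t1 shoot replicate 3 the count was 4, since MCM4 (edgeR adjusted p = 0.063) and PCNA1 (edgeR adjusted p = 0.056) were not called.

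**Figure D3:**
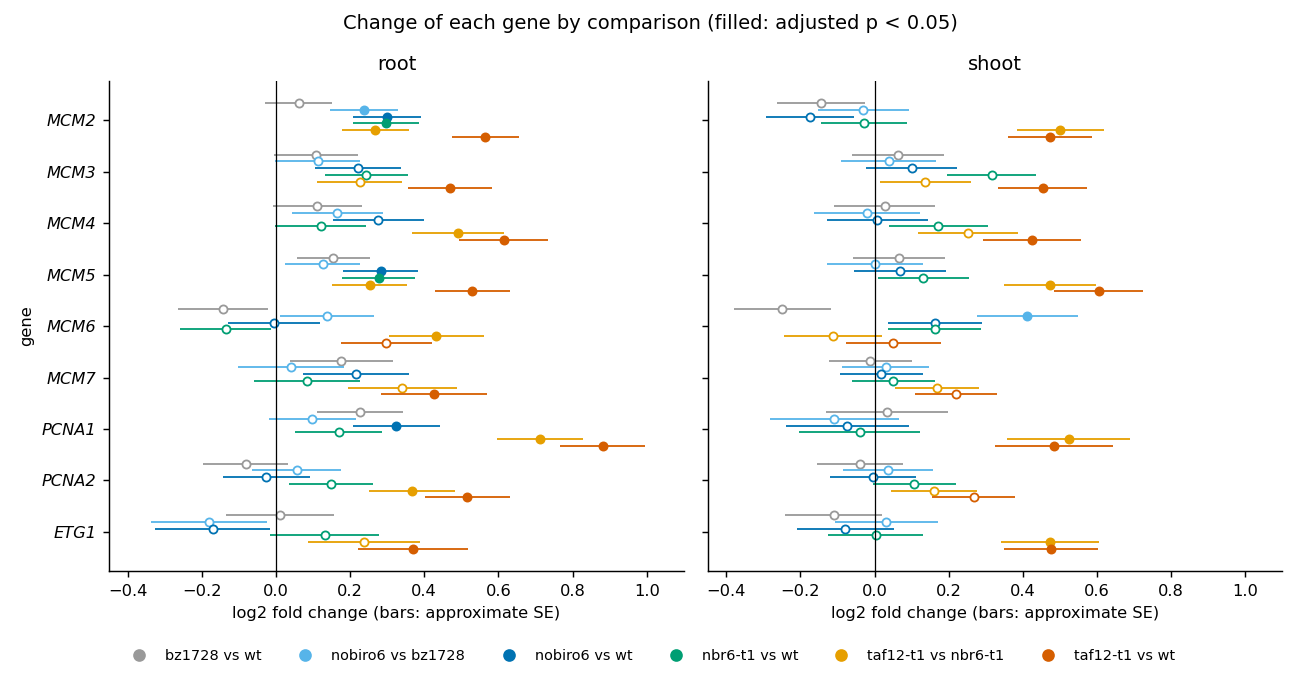
Log2 fold change (horizontal axis) of each gene (vertical axis) in 6 genotype comparisons, in root (left) and shoot (right); bars are approximate standard errors and filled points have an edgeR adjusted p under 0.05. The taf12-t1 comparisons lie to the right of 0 for all genes but MCM6 in shoot against nbr6-t1 (-0.11), and the points for bz1728 against wt are open in both tissues.

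Levels of other cell markers also differed between taf12-t1 and wt. In taf12-t1 root, 3 of 4 root meristem and stem cell niche markers rose, among them PLT2 (0.67 ± 0.21, edgeR adjusted p = 0.0096) and WOX5 (1.23 ± 0.39, edgeR adjusted p = 0.012). The summed level of the 4 markers was 66.6 to 89.2 CPM there and 54.1 to 67.1 in wt, ranges that overlap. SCR is 1 of the 4, and in nobiro6 shoot, where the other 3 were at 0, the sum was still 50.62 to 57.35 CPM. In taf12-t1 root 3 of 4 photosynthesis genes taken as shoot tissue markers fell. The sum of these 4 genes was 48.8 to 87.0 CPM, below the 121.6 to 132.3 of wt. In taf12-t1 shoot, 3 of 4 tested shoot meristem and young leaf markers rose, with a sum over 6 markers of 34.05 to 60.7 CPM against 24.4 to 33.5 in wt, while WUS and CLV3 were at 0 in both groups. The root tissue marker PYK10 also rose in taf12-t1 shoot (0.94 ± 0.25, edgeR adjusted p = 0.0071), and the sum of 5 root markers was 749.1 to 928.0 CPM against 327.9 to 675.6. PYK10 made up most of that sum, and SCR, the other root marker tested there, was not called (-0.09 ± 0.09, edgeR adjusted p = 0.44). Of the 4 photosynthesis genes 1 rose and 2 fell in the same shoot libraries, with a sum of 23534 to 28687 CPM against 19560 to 21958 in wt. The root meristem markers were also counted in other root comparisons. None of the 4 was called by edgeR in nbr6-t1 root against wt, where 20.5% of all genes were called. Of the same 4, 2 were lower and none higher in nobiro6 root against bz1728 (edgeR), where 18.9% of all genes were lower. The part of tissue makeup in the changes of the replication genes was not tested. In whole organs, more dividing cells and more transcript per dividing cell cannot be told apart.

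Other steps of replication were followed with lists of known genes, written with earlier results of these data known. Beside the root counts below, 19.5% of all genes were called higher and 19.8% lower in taf12-t1 root than in wt. In taf12-t1 root 5 of 11 tested origin recognition and licensing genes rose and none fell (median 0.36), among them the origin subunit gene ORC6 (0.69 ± 0.18, edgeR adjusted p = 0.0025) and the loading factor genes CDC6 (0.77 ± 0.24, edgeR adjusted p = 0.012) and CDT1A (0.46 ± 0.10, edgeR adjusted p = 0.00057). Of 9 genes for CDC45, GINS subunits and further MCM proteins, 3 rose and 1 fell (median 0.20), and MCM10 was among those that rose (0.46 ± 0.16, edgeR adjusted p = 0.025). Of 10 polymerase and primase genes 5 rose and none fell (median 0.29), including ICU2, the catalytic subunit of polymerase alpha (0.51 ± 0.10, edgeR adjusted p = 0.00014), and POL2A, that of polymerase epsilon (0.46 ± 0.09, edgeR adjusted p = 7.1e-05). Of 16 genes for the clamp loader, RPA, FEN1 and ligase 4 rose and none fell (median 0.27), a share higher near that of all genes. Those that rose included the clamp loader subunit RFC4 (0.52 ± 0.12, edgeR adjusted p = 0.0012) and the ligase LIG1 (0.37 ± 0.10, edgeR adjusted p = 0.0036).

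Genes that supply a replicating cell with nucleotides and histones were also higher in taf12-t1 root. Of 5 nucleotide supply genes 3 rose, namely the ribonucleotide reductase subunits TSO2 (0.75 ± 0.09, edgeR adjusted p = 1.3e-07) and RNR1 (0.50 ± 0.07, edgeR adjusted p = 1.7e-07) and the thymidine kinase TK1A (0.65 ± 0.13, edgeR adjusted p = 0.0002). Of 8 genes for histone H3.1 and its assembly 6 rose, with a median of 0.58, though H3.1 genes have near-identical coding sequence and may share reads. The 7 mitotic genes that rose, of 12 tested, included the mitotic cyclin CYCB1;4 (0.77 ± 0.12, edgeR adjusted p = 6.1e-06) and the cytokinesis syntaxin KNOLLE (0.55 ± 0.09, edgeR adjusted p = 9.9e-06). CDK inhibitors went the other way, with 5 of 10 lower and none higher, KRP1 most (-1.92 ± 0.28, edgeR adjusted p = 8.7e-07). Of 16 E2F, retinoblastoma and G1 regulators 3 rose and 1 fell, with a median of 0.01. The background for these counts is the 19.5% of all genes called higher and 19.8% called lower in root.

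The same lists were counted in taf12-t1 shoot. None of the 9 CDC45, GINS and further MCM genes was called by edgeR (median 0.02), and of the licensing genes 1 of 10 rose (CDT1A, 0.41 ± 0.15, edgeR adjusted p = 0.034) and 1 fell (ORC5, -0.79 ± 0.17, edgeR adjusted p = 0.00081). Of 10 polymerase and primase genes only POL2A rose (0.37 ± 0.11, edgeR adjusted p = 0.0073). Of 16 clamp loader, RPA, FEN1 and ligase genes 3 rose and 2 fell (median 0.14), and of 16 E2F, retinoblastoma and G1 regulators 2 rose and 3 fell (median -0.09). Nucleotide supply (3 of 5 higher, 1 lower, median 0.56) and H3.1 with chromatin assembly (5 of 8 higher, 1 lower, median 0.51) had the highest medians. TK1A (0.70 ± 0.11, edgeR adjusted p = 1.1e-05), RNR1 (0.56 ± 0.09, edgeR adjusted p = 1.2e-05) and TSO2 (0.57 ± 0.09, edgeR adjusted p = 2.2e-05) were the nucleotide genes that rose. Of 12 mitotic genes 4 rose, and 2 of 9 CDK inhibitors fell and 1 rose. In shoot 20.3% of all genes were called higher and 20.4% lower. The difference between root and shoot in these list counts was not tested.

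**Figure D4:**
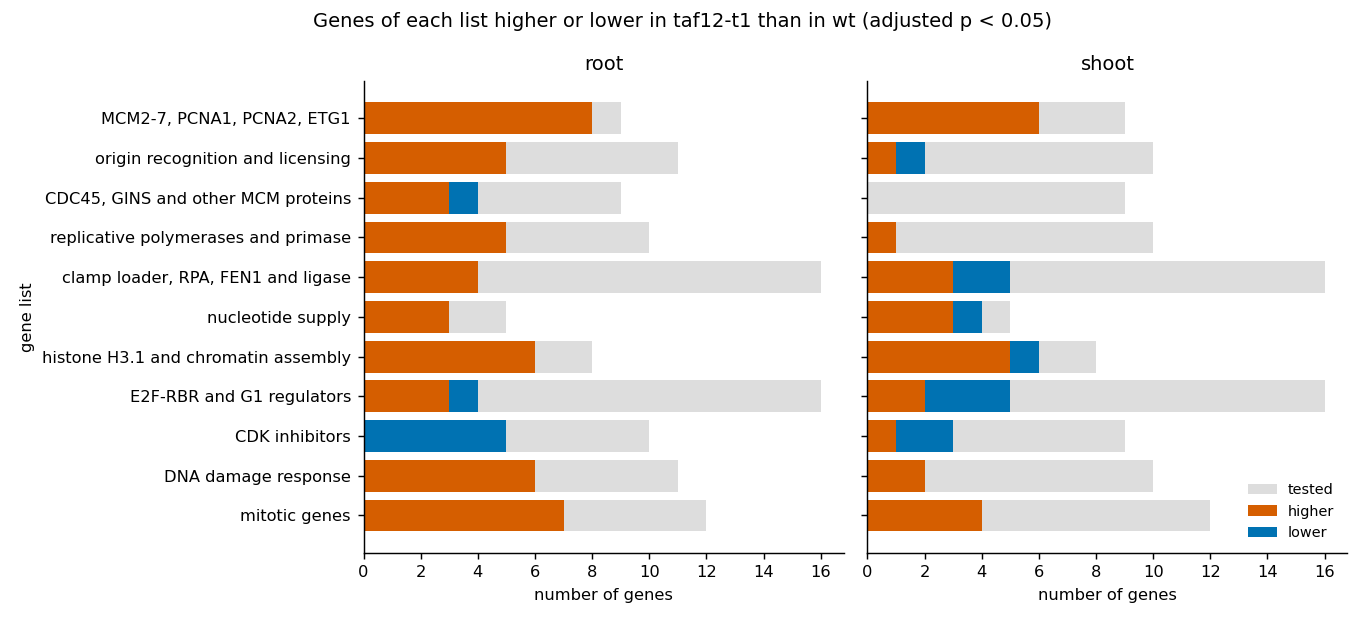
Number of genes (horizontal axis) of each list (vertical axis) tested (grey), called higher (orange) or called lower (blue) in taf12-t1 than in wt, in root (left) and shoot (right), by edgeR at adjusted p under 0.05. The 9 replication genes of the top bar have 8 higher in root and 6 in shoot, and the CDC45, GINS and further MCM list has none called in shoot.

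The line nbr6-t1, labelled a T-DNA line of the paralog TAF12B, was compared with wt in the same way. TAF12B transcript was not low in its root libraries, as given above. In root MCM2 and MCM5 rose (2 of 9, with 20.5% of all genes called either way and 6.96% higher). MCM2 was at 57.1, 58.6, 53.6 and 57.6 CPM in nbr6-t1, of which 3 lay above all wt libraries, and changed by 0.30 ± 0.09 in log2 (edgeR adjusted p = 0.016). MCM5 was at 38.1, 43.9, 37.6 and 40.4 CPM, overlapping wt, and changed by 0.28 ± 0.10 (edgeR adjusted p = 0.044). No gene had every nbr6-t1 root library above wt, as 9.45% of all genes did. Both calls were lost without wt root replicate 3 (edgeR adjusted p = 0.064 and 0.2), and MCM2 also without wt root replicate 4 (edgeR adjusted p = 0.051). MCM5 was also lost without wt root replicate 2 or without any one of the 4 nbr6-t1 root libraries (edgeR adjusted p = 0.054 to 0.16). With all libraries it was lost with DESeq2 (adjusted p = 0.081) and on both TPM scales (limma adjusted p = 0.051 and 0.054). In edgeR it was lost with RLE factors, without the filter and with only the groups compared (adjusted p = 0.052, 0.071 and 0.07). The other 7 genes lay between -0.14 (MCM6) and 0.24 (MCM3). In shoot no gene was called by edgeR, with 1 at an unadjusted p under 0.05 and none by DESeq2, where 7.5% of all genes were called, 1.56% higher and 5.94% lower. That gene was MCM3, at 32.7, 31.7, 28.8 and 31.1 CPM in nbr6-t1 against 24.0, 22.9, 25.3 and 27.9 in wt, and its change was 0.32 ± 0.12 (edgeR adjusted p = 0.11). It was the only one of the 9 whose nbr6-t1 shoot libraries all lay above wt, as did 5.26% of all genes.

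Set directly against nbr6-t1, the libraries labelled taf12-t1 were higher in 6 of 9 genes in root and in 4 of 9 in shoot, with none lower. The share of all genes called was 47.2% in root and 47.1% in shoot, of which 24.7% and 24.6% were higher in taf12-t1. PCNA1 differed most in both tissues, by 0.71 ± 0.12 in root (edgeR adjusted p = 5.3e-06) and by 0.52 ± 0.17 in shoot (edgeR adjusted p = 0.012). In root MCM4 (0.49 ± 0.12, edgeR adjusted p = 0.0014), MCM6 (0.43 ± 0.13, edgeR adjusted p = 0.0057), PCNA2 (0.37 ± 0.12, edgeR adjusted p = 0.009), MCM2 (0.27 ± 0.09, edgeR adjusted p = 0.015) and MCM5 (0.25 ± 0.10, edgeR adjusted p = 0.038) were also higher. All taf12-t1 libraries lay above all of nbr6-t1 for 5 genes in root (21.5% of all genes) and for 3 in shoot (22.1%). MCM2 was not called without taf12-t1 root replicate 4, nor MCM5 without nbr6-t1 root replicate 1 or 3 or taf12-t1 root replicate 2 (edgeR adjusted p = 0.073 to 0.1). On the TPM scale the root count was 1, PCNA1, and the median of all genes in that comparison was -0.15 on log2(TPM + 1). The values of the 9 genes there ran from 0.02 (ETG1) to 0.52 (PCNA1). In shoot the others were MCM2 (0.50 ± 0.12, edgeR adjusted p = 0.0012), MCM5 (0.47 ± 0.12, edgeR adjusted p = 0.003) and ETG1 (0.47 ± 0.13, edgeR adjusted p = 0.0047). The root libraries of these 2 lines also differed in tissue markers. All 4 photosynthesis genes were lower in taf12-t1 root than in nbr6-t1 root (edgeR, median log2 change -1.96). Their sum was 48.8 to 87.0 CPM in taf12-t1 root and 168.2 to 200.5 in nbr6-t1 root. The part of tissue makeup in this comparison was not tested.

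The comparison of bz1728 with wt gave no call among the 9 genes in either tissue, by edgeR or DESeq2 and with none at an unadjusted p under 0.05. Among all genes 38.9% were called in root (18.2% higher, 20.7% lower) and 17.8% in shoot (8.4% higher, 9.42% lower). In root the changes ran from -0.14 (MCM6) to 0.23 (PCNA1, edgeR adjusted p = 0.12), with standard errors of 0.09 to 0.14. PCNA1 was at 28.2, 27.1, 25.0 and 18.01 CPM there, so that 3 libraries lay above all of wt and 1 below all of it. Without that lowest library, replicate 4, PCNA1 was called (0.32, edgeR adjusted p = 0.017). In shoot the changes ran from -0.25 (MCM6) to 0.07 (MCM5). No gene had all bz1728 libraries above wt, as 17.2% of all genes did in root and 10.2% in shoot. Meristem markers were counted in this line too. In bz1728 root 3 of 4 root meristem markers rose, PLT2 by 1.06 ± 0.19 (edgeR adjusted p = 1.7e-05). The sum of all 4, SCR included, was 78.9 to 88.3 CPM. In bz1728 shoot all 4 tested shoot meristem and young leaf markers rose, STM by 1.44 ± 0.34 (edgeR adjusted p = 0.004).

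The line labelled as the suppressor nobiro6 was compared with wt and with bz1728, the background that its label gives. BZIP28 reads were seen in the nobiro6 libraries and not in those of bz1728, so a shared background rests on the label. Against bz1728, 1 gene of 9 was higher in root, where 31.7% of all genes were called, 12.8% higher. It was MCM2, at 66.0, 56.2, 53.0 and 51.5 CPM in nobiro6 and 50.7, 48.8, 44.5 and 48.3 in bz1728, which do not overlap (as in 11.6% of all genes in this direction). Its change was 0.24 ± 0.09 (edgeR adjusted p = 0.043), and it was not called without nobiro6 root replicate 1, 2 or bz1728 root replicate 2, 3 or 4 (edgeR adjusted p = 0.064 to 0.23). In shoot, where 21% of all genes were called and 8.12% were higher, MCM6 was the gene that rose. It was at 24.6, 22.3, 24.3 and 25.9 CPM in nobiro6 and 17.9, 20.3, 15.5 and 19.8 in bz1728, with no overlap (8.52% of all genes), and changed by 0.41 ± 0.14 (edgeR adjusted p = 0.032). That call was lost when any of 5 of the 8 libraries was left out (edgeR adjusted p = 0.051 to 0.12): nobiro6 shoot replicate 1, 3 or 4, or bz1728 shoot replicate 1 or 3.

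Against wt, nobiro6 root had 3 genes higher, with 42.8% of all genes called either way and 18.9% called higher. They were MCM2 (0.30 ± 0.09, edgeR adjusted p = 0.0077), MCM5 (0.28 ± 0.10, edgeR adjusted p = 0.024) and PCNA1 (0.33 ± 0.12, edgeR adjusted p = 0.025). PCNA1 was at 29.6, 24.9, 23.4 and 31.1 CPM in nobiro6, of which 3 libraries lay above all of wt. MCM5 was the gene whose nobiro6 libraries (38.6 to 44.4 CPM) all lay above wt, as in 16.3% of all genes. PCNA1 was not called without wt root replicate 4 (edgeR adjusted p = 0.09). The count fell to 0 without nobiro6 root replicate 1 and to 1 without wt root replicate 3 or without nobiro6 root replicate 4, and was 5 without nobiro6 root replicate 3. In shoot none of the 9 was called, none had an unadjusted p under 0.05 and DESeq2 called none, where 12.1% of all genes were called, 3.66% higher and 8.47% lower. The comparisons with wt share the wt libraries, and those with bz1728 share the bz1728 libraries.

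Tests of differences between effects gave no call for any of the 9 genes. The change in taf12-t1 root less that in taf12-t1 shoot was largest for PCNA1 (0.42 ± 0.20, edgeR adjusted p = 0.13) and lowest for ETG1 (-0.08 ± 0.20), where 20.3% of all genes were called. For MCM6 that difference was 0.27 ± 0.18 (edgeR adjusted p = 0.31), so its missing response in shoot was not shown to differ from root. The same root minus shoot test gave 0 calls for bz1728 (23% of all genes called), for nobiro6 against bz1728 (15.8%) and for nbr6-t1 (2.4%), where MCM2 reached 0.38 ± 0.15 (edgeR adjusted p = 0.19). The change from bz1728 to nobiro6 less that from wt to nbr6-t1 was not called either, in root (11% of all genes) or in shoot (1.27%). Of these 6 tests, those of taf12-t1 and nbr6-t1 had 1 gene each at an unadjusted p under 0.05, and DESeq2 also called none.

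How wt root compares with wt shoot depended on the scale, since 6 of the 9 genes were lower in root with TMM factors over all 40 libraries (edgeR) and all 9 were above 0 on log2(TPM + 1). On the first scale ETG1 (13.2 ± 2.88 CPM in root, 22.1 ± 3.28 in shoot, log2 change -0.73 ± 0.14, edgeR adjusted p = 5.1e-06) and MCM7 (29.4 ± 6.62 and 46.4 ± 2.07 CPM, -0.65 ± 0.13, edgeR adjusted p = 1.8e-05) differed most. PCNA1 was level on it (17.4 ± 1.48 and 17.99 ± 2.002 CPM, -0.06 ± 0.14, edgeR adjusted p = 0.71). Of all genes 79% were called in this comparison, 39.8% lower in root. On log2(TPM + 1) with limma PCNA1 was 0.97 higher in root (31.6 ± 2.73 against 15.7 ± 1.36 TPM) and ETG1 0.27 higher. The median of all genes was itself 0.94 on that scale and -0.01 with TMM. Relative to that median, 8 of the 9 genes lay below it in root, from -0.67 (ETG1) to -0.02 (PCNA2), and PCNA1 lay 0.03 above, though with a pseudocount of 0.1 it too lay below (-0.03).

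**Figure D5:**
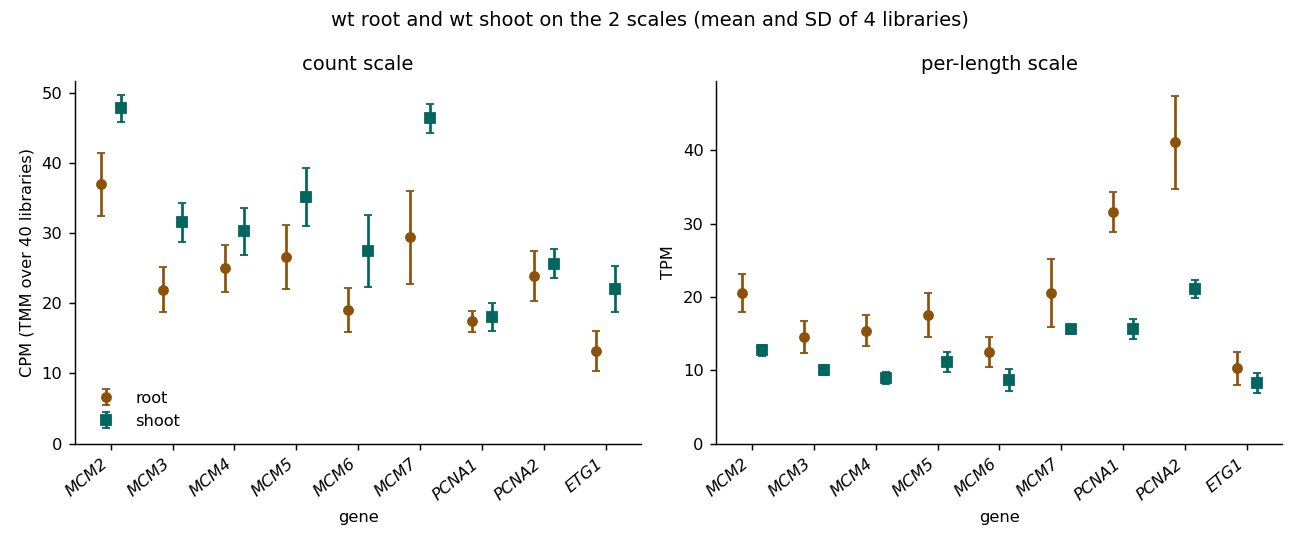
Mean and SD of 4 wt root (brown circles) and 4 wt shoot (green squares) libraries for each gene, in CPM scaled with TMM factors over 40 libraries (left) and in TPM (right). Root lies below shoot in the left panel and above it in the right panel for all 9 genes, with PCNA1 at 17.4 and 17.99 CPM but at 31.6 and 15.7 TPM.

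The 9 genes varied together from library to library to a varying degree. Over the 40 libraries, with each tissue's mean removed from log2 CPM, Pearson's r between pairs ran from 0.22 to 0.79 with a median of 0.63. With each group's mean removed it ran from 0.07 to 0.69 with a median of 0.41, so that part of the common variation lay between replicates of the same group, as in wt root replicate 3 (9 of 9 below the group mean), nbr6-t1 root replicate 3 (9 of 9 below) and nobiro6 shoot replicate 3 (9 of 9 above). MCM5 followed the mean of the other 8 most closely (r = 0.84), ahead of PCNA1 (0.83) and MCM2 (0.83), and MCM6 least (0.42). The other genes whose log2 CPM was most like the mean of the 9 were RPL23AA (r = 0.88), Hsp81.4 (0.88), AT5G20290 (0.88), HD2B (0.88), AT5G60390 (0.88), TSO2 (0.87), AT3G62870 (0.87), TCP-1 (0.87), RPL18 (0.86) and AT1G58983 (0.86), out of 16237 genes compared. These libraries fall into genotype groups and differ in depth, and the values are a description.

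Other loci with an E2F motif in the same window were counted beside the members. Of 384 such loci, 267 were tested in root, and 22.1% of them were higher and 17.98% lower in taf12-t1 than in wt, with a median log2 change of 0.06. In shoot 250 were tested, with 18% higher, 17.6% lower and a median of 0.04. These shares lie near those of all genes, 19.5% and 19.8% in root and 20.3% and 20.4% in shoot.

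Reads from neighbours could enter some of these values. The MCM2 to MCM7 transcripts share no 31-mer, the word length by which the authors' tool is taken here to match reads, with another transcript. PCNA1 shares 11 (1.0%), all with PCNA2. PCNA2 shares 249 of its 31-mers (21.6%) with the opposite strand of the adjacent AT2G29560 (ENOC), and the labels do not say whether strand was kept, so reads of the pair may not be told apart. ENOC changed by -0.05 ± 0.09 in taf12-t1 root (edgeR adjusted p = 0.68) and fell by 0.54 ± 0.11 in taf12-t1 shoot (edgeR adjusted p = 0.00043). ETG1 shares 19 (0.83%) with its neighbour KT2, which changed by -0.11 ± 0.10 in taf12-t1 root (edgeR adjusted p = 0.42) and fell by 0.33 ± 0.08 in shoot (edgeR adjusted p = 0.0018).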

How the data were processed

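Expected counts and TPM were deposited per library by the authors, who trimmed reads with Trimmomatic 0.39 and estimated abundances with kallisto 0.44.0, per the submitters' processing notes. The deposited TPM values sum to 1000000 in each library, and the genome build behind the tables is not given in the sources used here. Between 97.7% and 98.5% of expected counts were whole within 1e-06. Each count was rounded before testing. Genes passing filterByExpr (a count of 10, a total of 15) were fitted in edgeR 4.0.16 (R 4.3.3) with TMM factors and robust quasi-likelihood F-tests on group means: 18745 genes in the 20 root libraries, 17382 in the 20 shoot libraries and 20015 in all 40 for root minus shoot differences and wt root against wt shoot. P-values were adjusted by Benjamini-Hochberg over all genes of a fit and called under 0.05. The procedure was tested on simulated data for taf12-t1 against wt. It recovered 53.6% of 1.5-fold changes in root and 60.3% in shoot, and 97.2% of 4-fold changes in each. Of 2-fold changes it recovered 83.6% in root and 72.1% in shoot. The changed genes were drawn from all genes that passed the filter, not at the levels of the 9 genes. Changes of 2-fold or less can therefore be missed. Library totals of 2.66 to 12.9 M counts put between 45 and 453 counts behind each value of the 9 genes. Alternatives were DESeq2 1.42.0, RLE factors, no filter, only the groups compared, a replicate block, limma 3.58.1 on log2(TPM + 1) and log2(TPM + 0.1), and leaving out each library. Within groups 60 pairs of libraries were compared and none were identical. The genes, lists and tests were chosen with earlier results of these data known. Named genes were all 9 members, the 3 genes of smallest adjusted p in each list and comparison, and the 10 genes most correlated with the members' mean. The RefSeq sequences (TAIR10.1) and RefSeq symbols were matched by locus.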

Additional observations from a re-analysis of the deposited data

Results flagged for a closer look

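In 4 of the 90 combinations of gene and group, 1 library stood apart from the other 3 by more than Dixon's 95% limit for 4 values, a rate that chance gives in about 1 of 20 groups. MCM4 in nobiro6 shoot was at 31.1 CPM in replicate 3 and at 21.1 to 22.6 in the others. That library was above its group mean for 9 of 9 genes. MCM5 in bz1728 shoot was at 32.6 CPM in replicate 1 and at 27.9 to 28.6 in the others. PCNA2 in bz1728 root was at 21.4 CPM in replicate 4 and at 29.5 to 30.8 in the others, and that library was below its group mean for 8 of 9 genes. PCNA2 in bz1728 shoot was at 24.2 CPM in replicate 4 and at 17.7 to 18.8 in the others.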

How the results depend on the processing

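Of the counts of genes called, those not given here stayed within 1.5 times the reported value under DESeq2, RLE factors, no filter, both TPM scales, only the groups compared and the replicate block. For nobiro6 against bz1728 in root the count of 1 was 0 under DESeq2, without the filter and with only the groups compared. For nbr6-t1 against wt in root the count of 2 was 1 under DESeq2, RLE factors, no filter, both TPM scales and only the groups compared. MCM5 was the gene lost in each. For taf12-t1 against nbr6-t1 in root the count of 6 was 1 on both TPM scales. All 9 values stayed above 0, but on log2(TPM + 1) they ran from 0.02 (ETG1) to 0.52 (PCNA1). MCM2 (limma adjusted p = 0.51) and MCM5 (limma adjusted p = 0.57) were each at 0.08 on that scale. The median of all genes was -0.15 (+ 1) and -0.17 (+ 0.1). For taf12-t1 against wt the TPM counts were 6 in root and 5 in shoot, with values 0.30 to 0.85 and 0.08 to 0.58 above the median of all genes on log2(TPM + 1).

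The sign of wt root against wt shoot reversed on both TPM scales for all 9 genes. On log2(TPM + 1) and log2(TPM + 0.1) the values were 0.64 and 0.67 (MCM2), 0.49 and 0.52 (MCM3), 0.72 and 0.77 (MCM4), 0.60 and 0.64 (MCM5), 0.48 and 0.53 (MCM6), 0.35 and 0.37 (MCM7), 0.97 and 1.01 (PCNA1), 0.92 and 0.95 (PCNA2), and 0.27 and 0.29 (ETG1). The median of all genes moved to 0.94 and 1.04.

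Leaving out each library in turn gave counts of 6 to 9 for taf12-t1 against wt in root and 4 to 7 in shoot, and of 5 to 8 and 4 to 4 against nbr6-t1. Ranges were 0 to 1 for bz1728 against wt in root, 0 to 1 for nobiro6 against bz1728 in root and in shoot, 0 to 5 for nobiro6 against wt in root, 0 to 2 for nbr6-t1 against wt in root, 6 to 7 for wt root against shoot, and 0 to 0 for the rest. No gene called in the reported fit changed sign in these fits, while some uncalled values near 0 did.

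Replicate numbers did not pair the samples: in 0 of 25 pairs of groups were all correlations of same-numbered deviations over 0.1 (range -0.30 to 0.22), and 27 of 100 matched best with their own number. With the replicate block the count for taf12-t1 against wt was 9 in root and 6 in shoot, for nobiro6 against wt in root 4 and for taf12-t1 against nbr6-t1 in root 7. Depth limits small changes, since a gene of these levels had 45 to 453 counts per library.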

Other observations

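The DNA damage response genes, which overlap with the replication genes in dividing cells, were among the lists not described above. This list shares TSO2 with nucleotide supply, CYCB1;1 with the mitotic genes, and SMR5 and SMR7 with the CDK inhibitors. These shared genes are counted in both places. In taf12-t1 root 6 of 11 tested rose and none fell (edgeR, median log2 change 0.39), where 19.5% of all genes were higher, BRCA1 by 0.88 ± 0.17 (edgeR adjusted p = 8.2e-05) and the kinase ATM by 0.36 ± 0.08 (edgeR adjusted p = 0.00074). In taf12-t1 shoot 2 of 10 rose, TSO2 and BRCA1 (0.56 ± 0.16, edgeR adjusted p = 0.008), a share near the 20.3% of all genes called higher.

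Some single genes of the replication lists, chosen after their values were seen, differed between root and shoot in their response to taf12-t1. RPA1A, a subunit of the protein that coats single-stranded DNA, rose by 1.16 ± 0.24 in shoot (edgeR adjusted p = 0.00041), and its root change less its shoot change was -1.25 ± 0.27 (edgeR adjusted p = 0.00074). The CDK inhibitor KRP1 gave -1.63 ± 0.29 for the same difference (edgeR adjusted p = 5.7e-05), and SIM, which promotes endoreduplication, gave -0.70 ± 0.20 (edgeR adjusted p = 0.01). The clamp loader gene RFC3 gave 0.58 ± 0.19 (edgeR adjusted p = 0.021).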
